A study of Drosophila melanogaster with 12 samples.

Results

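The genes described here encode 7 DNA-binding or chromatin proteins of insulators and domain boundaries other than Su(Hw) and its direct partners: CTCF, BEAF-32, Chro, Trl, pita, ZIPIC and insv. They were chosen by name, as the probe sets whose symbol in the probe annotation is one of these alone, which gave 9 of the 18952 probe sets on the array and 7 of the 11982 genes that have a probe set of their own. CTCF has 3 probe sets and each of the others has 1. All 9 passed the filter on low signal, and 9147 genes were tested in all.

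Expression was measured in Drosophila melanogaster ovaries on 12 one-colour Affymetrix arrays, 3 for each of 4 genotypes. Wild type was Canton S, and the mutants were the fertile su(Hw)f/su(Hw)v (here f/v) and the sterile su(Hw)2/su(Hw)v (2/v) and su(Hw)Pb/su(Hw)2 (Pb/2). All were virgin females aged 4 to 6 h. RNA of roughly 150 ovary pairs was pooled for every array. The p-values therefore reflect variation among pools, which may be technical only. The su(Hw)2 allele is common to both sterile genotypes, and the v allele to f/v and 2/v. The strain background of the mutants is not in the labels, so genotype and background cannot be told apart in any comparison with wild type. The labels give ovary as the tissue, although the source name says embryos.

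Insulators are DNA elements that limit contact between enhancers and promoters and separate chromatin domains. In flies they are bound by proteins that read short DNA motifs, and several of these proteins recruit the shared cofactor Cp190. CTCF, pita and ZIPIC are zinc finger proteins of this kind. BEAF-32 binds boundaries close to promoters, Chro (Chromator) is a chromodomain protein found with BEAF-32 and on the mitotic spindle, and Trl encodes GAGA factor, which binds GA-rich promoters and boundaries. The insv product, Insensitive, is a BEN domain protein known as a repressor of Notch targets and as a relative of the Elba proteins that bind the Fab-7 boundary.

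Of these 7 genes, insv was lower in both sterile genotypes than in f/v and in wild type, by 1.29 to 1.49-fold. The gene pita was lower in f/v than in wild type and in 2/v, and each difference was under 1.2-fold (log2 -0.26 and 0.26). BEAF-32, Chro, Trl and ZIPIC passed the test in no comparison. The 3 probe sets of CTCF did not give one answer: the brightest passed in no comparison, while the other 2 were far lower in all 3 mutants than in wild type. No member changed by 2-fold or more when the brightest probe set stands for the gene.

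Signals below are quantile-normalized array intensities, on a linear scale with no absolute unit. Changes are differences of log2(signal + 16), with SE, from limma over all 9147 genes, and a gene was called at a Benjamini-Hochberg adjusted p under 0.05. Background was set from 27 control probe sets for bacterial genes, at their 95th percentile, which was 66.5 after normalization. The comparisons share groups (wild type enters 3 of the 6 pairs), so their results are not independent of each other. The su(Hw) probe set checked the genotypes: its mean signal was 3809 in wild type and 2737 in the fertile f/v, but 98.4 in 2/v and 150 in Pb/2. In bulk ovaries, fewer cells of a type and less RNA per cell cannot be told apart.

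The insv signal was 1202, 1246 and 1394 on the wild type arrays and 1366, 1432 and 1401 on the f/v arrays. It was 899, 1123 and 953 in 2/v and 976, 908 and 917 in Pb/2. All 6 sterile arrays lay below all 6 fertile arrays, the fertile groups overlapped each other, and so did the sterile groups. The log2 change of insv from wild type was -0.37 ± 0.09 for 2/v (adjusted p = 0.0073) and -0.45 ± 0.09 for Pb/2 (adjusted p = 0.0033). From f/v it was -0.50 ± 0.09 for 2/v (adjusted p = 0.0025) and -0.58 ± 0.09 for Pb/2 (adjusted p = 0.0013). The mean of the sterile groups against that of the fertile groups gave log2 -0.47 ± 0.06 (adjusted p = 0.00025). The order of the means was f/v, wild type, 2/v and Pb/2. Its neighbours f/v and wild type did not pass the test (log2 0.13 ± 0.09, adjusted p = 0.3), nor did 2/v and Pb/2 (log2 -0.08, 95% interval -0.28 to 0.12, adjusted p = 0.57). With the array median subtracted in place of quantile normalization, the 2/v against wild type call was lost (log2 -0.28, adjusted p = 0.075). Relative to the median of all genes that value was -0.48, and it was -0.38 with quantile normalization. A size of change below that of insv was seen in 81.6% of the genes tested in sterile against fertile ovaries.

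**Figure D1:**
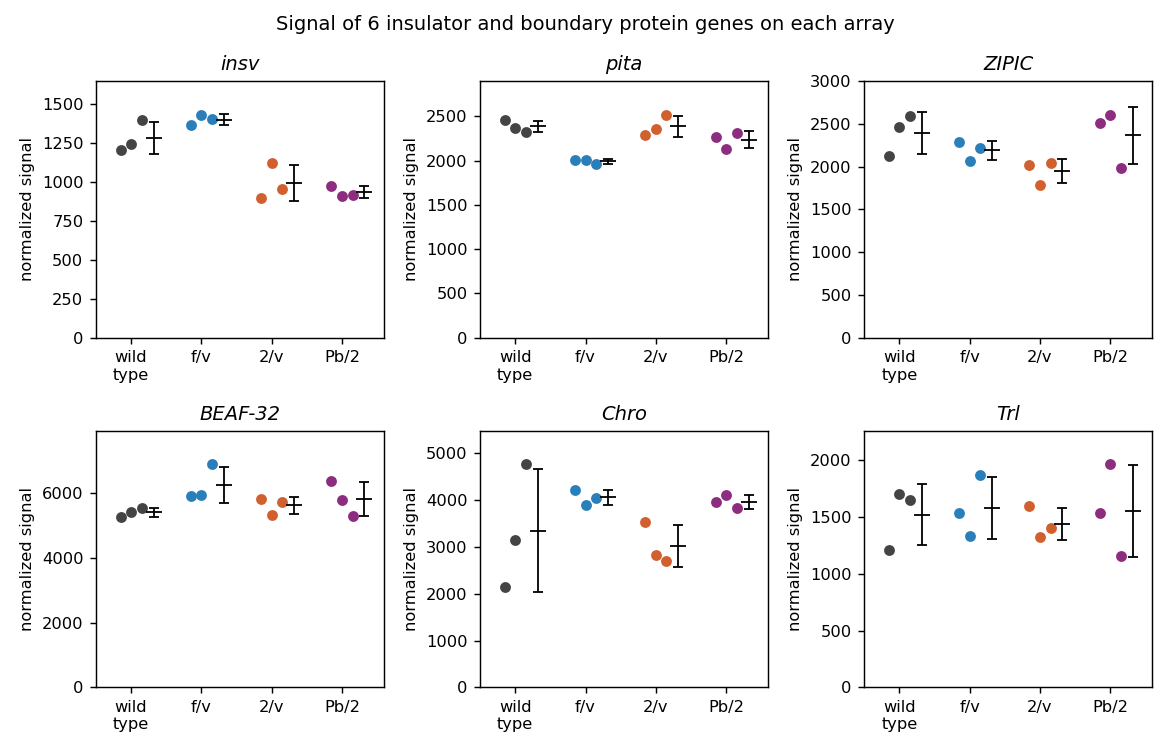
Normalized signal (linear scale) of the 6 genes with 1 probe set on each of the 12 arrays by genotype, with points for arrays and a bar for the mean ± SD of 3 arrays. The sterile insv arrays lie between 899 and 1123, below the lowest fertile array at 1202, and the Chro arrays of wild type spread from 2142 to 4760.

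Signals of marker lists for cell types were also summed, and several of the sums, but not all, differed between genotypes. The germline list (9 of 10 markers tested) summed to 67884 to 77478 in wild type and 73052 to 78798 in f/v, and the sterile sums were 68994 to 69742 for 2/v and 72476 to 76689 for Pb/2. The follicle cell list (8 of 10) summed to 20756 to 23033 in wild type and to 11512 to 15496 in the mutants. The neuron list (6 of 8) was at 3466 to 4992 on the fertile arrays and at 16713 to 20492 on the sterile arrays. Most of that sum came from Rph, with mean signals of 136 in wild type, 379 for f/v, 10001 for 2/v and 8079 for Pb/2, and from Rbp9, with 3585, 2666, 9169 and 8257. The pan-neuronal gene elav had a lower mean in every mutant (374 to 382) than in wild type (827). The means of cpx (181 in wild type, 260 for f/v, 227 for 2/v, 163 for Pb/2) and brp (65.9, 105, 91.6 and 87.3) did not separate the sterile from the fertile genotypes. Within that list fne was not above background on any array, and nSyb was above it on sterile arrays only. The gut list (6 of 8) summed to 10625 to 12122 in wild type and to 811 to 1222 in the mutants, the muscle list (8 of 11) to 51283 to 52332 and 23198 to 29103, and the hemocyte list (6 of 6) to 33176 to 34603 and 18469 to 23814. The fat body list (5 of 6) overlapped between all genotypes, at 27575 to 34235, and most of it was the yolk protein gene Yp1 (means of 21737 to 28563). Its members Lsp2 (2526 in wild type, 1164 to 1667 in the mutants), Fbp1 (1528 and 457 to 916) and Fbp2 (2267 and 910 to 1181) had lower means in every mutant. Follicle, gut, muscle and hemocyte sums thus separated wild type from every mutant array. Not every member moved with its sum. In the follicle cell list tj (309 in wild type, 324 to 411 in the mutants) and slbo (155 and 174 to 209) had higher means in every mutant. So did Pxn (1453 and 1627 to 2253) in the hemocyte list, most of which was vkg and Ppn (17118 and 14025 in wild type). The part of these cell types in the results for insv, pita and CTCF was not tested.

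The pita signal was 2459, 2373 and 2327 in wild type and 2007, 2011 and 1960 in f/v. It was 2286, 2354 and 2522 in 2/v and 2264, 2135 and 2316 in Pb/2. The f/v arrays lay below all 9 others, and the wild type and 2/v arrays overlapped. Against wild type pita fell by 0.26 ± 0.06 on the log2 scale in f/v (adjusted p = 0.0086), and it was higher by 0.26 ± 0.06 in 2/v than in f/v (adjusted p = 0.011). Pb/2 against f/v did not pass (log2 0.17 ± 0.06, adjusted p = 0.087), nor did 2/v against wild type (log2 0.00, 95% interval -0.14 to 0.14), Pb/2 against wild type (log2 -0.09 ± 0.06, adjusted p = 0.29) or Pb/2 against 2/v (log2 -0.09, adjusted p = 0.32). Both pita calls were lost with the array median subtracted (log2 -0.15, adjusted p = 0.29, against wild type, and log2 0.33, adjusted p = 0.053, for 2/v against f/v). With arrays scaled to the hybridization controls, 2/v against f/v was also lost (log2 0.06, adjusted p = 0.79). Relative to the median of all genes, which these scalings move, the f/v change from wild type was -0.30 with the array median subtracted and -0.28 with quantile normalization, and 2/v against f/v was 0.26 under each of 4 scalings.

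The CTCF probe set with the highest mean, 1627546_at, stands for the gene in the counts over all genes. Its signal was 2045, 1991 and 1824 in wild type, 1744, 1665 and 1674 in f/v, 1768, 1827 and 1720 in 2/v and 1827, 1477 and 1754 in Pb/2. The wild type arrays lay above the f/v arrays and overlapped the sterile ones. Its changes against wild type did not pass the test: -0.20 ± 0.08 for f/v (adjusted p = 0.091), -0.14 ± 0.08 for 2/v (adjusted p = 0.21) and -0.21 ± 0.08 for Pb/2 (adjusted p = 0.081), all on the log2 scale. All 3 passed on the values as deposited (log2 -0.30, -0.26 and -0.31, adjusted p = 0.025, 0.033 and 0.023). The f/v change also passed without Pb/2 replicate 2 (adjusted p = 0.04), and the Pb/2 change without Pb/2 replicate 1 (log2 -0.28, adjusted p = 0.05 after rounding). The mutants did not pass against each other (log2 0.06, -0.01 and -0.08 for 2/v against f/v, Pb/2 against f/v and Pb/2 against 2/v, adjusted p = 0.62, 0.93 and 0.56).

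The second CTCF probe set, 1626500_a_at, read 1486, 1361 and 1457 in wild type. It read 151, 159 and 130 in f/v, 147, 124 and 132 in 2/v and 84.1, 121 and 78.7 in Pb/2. Every mutant array was thus above background and under every wild type array. Its log2 change against wild type was -3.16 ± 0.13 for f/v (adjusted p = 6.6e-08), -3.27 ± 0.13 for 2/v (adjusted p = 5.1e-08) and -3.73 ± 0.13 for Pb/2 (adjusted p = 1.5e-08). These values come from a fit of all 10125 single-gene probe sets one by one, in which 16.5%, 22.2% and 15.3% were called lower in these comparisons. Pb/2 lay below f/v (log2 -0.57, adjusted p = 0.014; 10% of probe sets called lower) and below 2/v (log2 -0.46, adjusted p = 0.04; 10.1%), and f/v and 2/v did not pass against each other (log2 -0.12, adjusted p = 0.57).

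The third, 1636485_at, read 1413, 1478 and 1595 in wild type. It read 33.1, 39.3 and 65.6 in f/v, 60.5, 40.7 and 71.8 in 2/v and 55.7, 36.3 and 13.9 in Pb/2. Only 1 of these 9 mutant arrays, in 2/v, was above background, and the probe set passed the filter through its wild type arrays, so a difference was built into its selection. Compared with wild type it was at least 22.5-fold lower in both f/v and Pb/2 and at least 21.9-fold lower in 2/v, with any mutant array under background set to background. These bounds are a description, with no test.

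**Figure D2:**
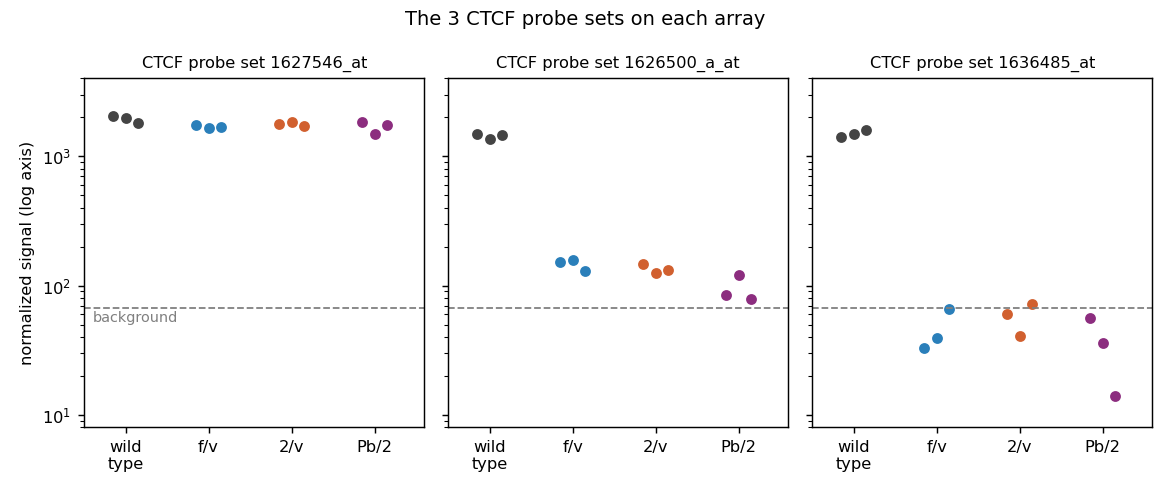
Normalized signal of the 3 CTCF probe sets on each array (log axis), by genotype, with the background of 66.5 as a dashed line. All 3 read 1361 to 2045 in wild type; in the mutants 1627546_at stayed at 1477 or more, 1626500_a_at read 78.7 to 159 and 1636485_at 13.9 to 71.8.

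The disagreement of the CTCF probe sets was tested as the difference of 2 probe sets' changes, a test chosen after these values were seen. It was run over 1657 pairs of probe sets of 690 genes, of which 21.4% (f/v), 25.7% (2/v) and 21.6% (Pb/2) were called in the comparisons with wild type. Both 1626500_a_at and 1627546_at were above background on all 12 arrays. The change of the former minus that of the latter was -2.96 ± 0.20 on the log2 scale for f/v (adjusted p = 1.6e-05), -3.14 ± 0.20 for 2/v (adjusted p = 1.2e-06) and -3.52 ± 0.20 for Pb/2 (adjusted p = 4.5e-07). Pairs with the dimmer 1636485_at were in this fit and in these shares. Their results are not given, as a difference was built into its selection. A fall of at least 8-fold in all 3 mutants was seen in 12 of 10125 probe sets (0.119%, 11 genes), and 2 of the 12 are those of CTCF. Of these 2, 1626500_a_at passed the filter on all 12 arrays. The other, 1636485_at, passed it through wild type, so its place in the count was partly fixed by its selection. The 8-fold limit lies just under the smallest CTCF fall it counts (8.93-fold, 1626500_a_at in f/v). The count is therefore a description only. When the 3 probe sets are averaged, 1636485_at included, the CTCF log2 change was -2.67 for f/v, -2.60 for 2/v and -2.97 for Pb/2. These arrays thus give no single level for CTCF, and which transcript regions the probe sets read was not analysed here.

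The genes next to CTCF on the chromosome were read as context, with gene order from the Release 6 plus ISO1 MT annotation and the choice made after CTCF was seen. On one side qm, a prenyl synthase gene, had log2 changes from wild type of -0.18 in f/v (adjusted p = 0.12), -0.62 for 2/v (adjusted p = 0.00021) and -0.30 for Pb/2 (adjusted p = 0.02). On the other side pst fell by 1.20, 0.81 and 0.86 on the log2 scale (adjusted p = 1.1e-05, 0.00014 and 0.00011). Of all genes, 35%, 46.3% and 31.3% were called in these comparisons. The next genes out, Srp19 and Sec63, were not called, with changes of -0.04 to 0.11. Neighbours of other members were called as well. Against wild type in f/v, slif by Chro (log2 0.85) and Rrp4 by pita (log2 0.66) were higher, and Mgat4a by Trl (log2 -0.71) was lower. The gene next to insv with a value is Elba2, another BEN domain gene. It was higher in f/v than in wild type (log2 0.36 ± 0.09, adjusted p = 0.012) and lower in 2/v and Pb/2 than in f/v (log2 -0.32 and -0.53, adjusted p = 0.026 and 0.0025). Unlike insv, Elba2 was not called against wild type in 2/v (log2 0.04, adjusted p = 0.76) or Pb/2 (log2 -0.17, adjusted p = 0.2). The 2/v call of Elba2 was lost without any 1 of the f/v arrays or 2/v replicate 1 (adjusted p up to 0.088), and the Pb/2 call of qm without wild type replicate 3 (adjusted p = 0.065) or Pb/2 replicate 1 (adjusted p = 0.079).

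The BEAF-32 signal was 5260, 5426 and 5546 in wild type and 5910, 5939 and 6896 in f/v. It was 5824, 5313 and 5734 in 2/v and 6373, 5786 and 5303 in Pb/2. The f/v arrays lay above those of wild type and 2/v, and the other pairs of groups overlapped. No pair passed the test: the largest difference was f/v against wild type (log2 0.20, 95% interval 0.01 to 0.40, adjusted p = 0.097), and sterile against fertile gave log2 -0.02 (95% interval -0.16 to 0.11). The call against wild type depended on the scaling: with the array median subtracted it was called higher in all 3 mutants (log2 0.40, 0.35 and 0.33), and scaled to the hybridization controls it was called lower in 2/v (-0.40) and Pb/2 (-0.45). These scalings also moved the median of all genes. Relative to that median BEAF-32 lay above it under each of 4 scalings, by 0.18 to 0.25 for f/v, 0.041 to 0.15 for 2/v and 0.099 to 0.16 for Pb/2.

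The Chro signal was 2142, 3136 and 4760 in wild type, so these 3 arrays alone spanned every other array of the gene. It was 4218, 3895 and 4049 in f/v, 3536, 2820 and 2687 in 2/v, and 3948, 4098 and 3817 in Pb/2. The 2/v arrays lay below all f/v and Pb/2 arrays. Neither difference passed the test (log2 -0.44 ± 0.23, adjusted p = 0.19, for 2/v against f/v and log2 0.40 ± 0.23, adjusted p = 0.24, for Pb/2 against 2/v). In a fit of the 2 groups alone, 2/v against f/v passed (adjusted p = 0.048). Without wild type replicate 3, f/v and Pb/2 were called higher than wild type (log2 0.64 and 0.61, adjusted p = 0.015 and 0.021), against log2 0.35 and 0.31 (adjusted p = 0.27 and 0.34) with it.

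The Trl signal was 1212, 1702 and 1653 in wild type, 1536, 1334 and 1872 in f/v, 1600, 1325 and 1402 in 2/v and 1536, 1965 and 1156 in Pb/2. All 4 groups overlapped, and the spread within a group was as wide as that between groups. Every change was between -0.12 and 0.08 on the log2 scale and none passed. The interval for sterile against fertile ran from -0.37 to 0.26. Annotation assigns 2 further probe sets to Trl together with another gene, and these were not used.

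The ZIPIC signal was 2121, 2460 and 2595 in wild type, 2284, 2069 and 2216 in f/v, 2020, 1782 and 2043 in 2/v and 2508, 2610 and 1988 in Pb/2. The 2/v arrays lay below those of wild type and f/v and overlapped Pb/2. The difference from wild type did not pass (log2 -0.29 ± 0.12, adjusted p = 0.062), nor did Pb/2 against 2/v (log2 0.27 ± 0.12, adjusted p = 0.12). The call for 2/v against wild type rested on the settings: it passed on the values as deposited (adjusted p = 0.02), with the 60th percentile filter (adjusted p = 0.038), with trend and robust variance estimates (adjusted p = 0.034), without wild type replicate 1 (adjusted p = 0.033) and without Pb/2 replicate 3 (adjusted p = 0.026). Without Pb/2 replicate 3, Pb/2 against 2/v passed as well (log2 0.39, adjusted p = 0.03). Scaled to the hybridization controls, 2/v against wild type passed too (log2 -0.88, adjusted p = 0.0011), with the median of all genes moved by -0.53; relative to that median it was -0.35, and -0.31 with quantile normalization.

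The members called are counted here beside the share of all genes called. Between f/v and wild type 1 of 7 passed (pita, lower), beside 35% of the 9147 genes called and 16.8% called lower. Between 2/v and wild type 1 of 7 passed (insv, lower), beside 46.3% called and 22.3% lower. For Pb/2 and wild type it was also 1 of 7 (insv, lower), beside 31.3% and 15.6%. Between 2/v and f/v 2 of 7 passed (pita higher, insv lower), beside 27.3% called, 13.7% higher and 13.5% lower. Between Pb/2 and f/v 1 of 7 passed (insv, lower), beside 20.5% called and 10.5% lower. In Pb/2 against 2/v 0 of 7 were called by limma, against 20.3% of all genes, with 1 member (ZIPIC) at an unadjusted p under 0.05. For sterile against fertile 1 of 7 was called (insv, lower), beside 36.5% called and 18.1% lower.

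**Figure D3:**
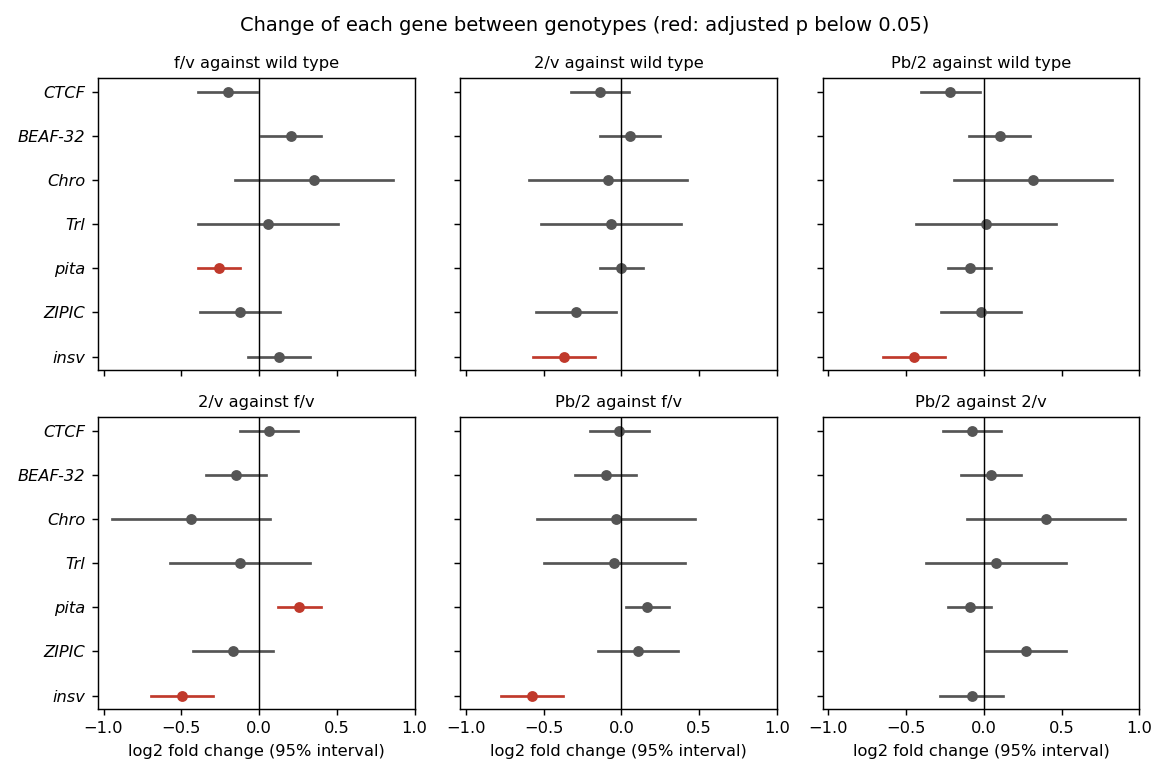
Difference of log2(signal + 16) with 95% interval for the 7 genes in the 6 pairs of genotypes, with called differences in red. The insv points lie at -0.37 to -0.58 in the 4 sterile against fertile pairs, pita is called in 2 pairs, and the other genes' intervals stay uncalled.

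The median absolute log2 change of the 7 members against wild type was 0.20 for f/v, 0.09 for 2/v and 0.10 for Pb/2, where the median over all genes was 0.25, 0.31 and 0.23. For sterile against fertile it was 0.08 against 0.18. Groups of arrays did not overlap in 3 of 7 members for f/v against wild type (49.6% of all genes), 2 for 2/v against wild type (56.9%) and 2 for Pb/2 against wild type (45.4%). They did not overlap in 5 of 7 for 2/v against f/v (43.8%), 2 for Pb/2 against f/v (37.8%) and 1 for Pb/2 against 2/v (38.7%). For sterile against fertile it was 1 (insv; 9.12% of all genes).

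Genes that act with these proteins were read from 6 lists. Without su(Hw), the lists hold 47 tested genes, of which 20 (42.6%) were called in sterile against fertile ovaries, 7 higher and 13 lower, beside 36.5% of all genes. Their median log2 change was -0.07, against 0.00 over all genes. In the other comparisons 18 were called for f/v, 26 for 2/v and 8 for Pb/2 against wild type (38.3%, 55.3% and 17% of the 47), beside 35%, 46.3% and 31.3% of all genes. For 2/v against f/v, Pb/2 against f/v and Pb/2 against 2/v, 12, 9 and 8 were called (25.5%, 19.1% and 17%), beside 27.3%, 20.5% and 20.3%.

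Of 11 tested architectural proteins outside the 7, 3 were higher and 3 lower in sterile ovaries, where 18.4% of all genes were called higher and 18.1% lower. Among them the zinc finger gene dwg (log2 0.39, adjusted p = 0.037) and Ibf2, a partner of Cp190 (log2 0.26, adjusted p = 0.013), were higher. The growth regulator l(3)mbt (log2 -0.38, adjusted p = 0.0032) and the nucleoporin gene Nup98-96 (log2 -0.36, adjusted p = 0.0051) were lower, as was Elba2 (log2 -0.25, adjusted p = 0.014). Neither sterile genotype was called for Elba2 against wild type. Of the 7 tested gypsy insulator genes other than su(Hw), mod(mdg4) was higher (log2 0.41, adjusted p = 2e-04). The cofactor Cp190 (log2 -0.28, adjusted p = 0.037) and the ubiquitin and SUMO ligase gene Topors (log2 -0.16, adjusted p = 0.023) were lower. The 22 probe sets of mod(mdg4), a gene with many spliced forms, also disagreed, from -2.25 to 0.92, and 6 of them had the opposite sign.

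Of 8 GAGA factor associates 1 was higher, the transcription factor gene z (log2 0.17, adjusted p = 0.013), and 3 were lower. The remodelling ATPase gene Iswi fell by 0.48 (adjusted p = 7.3e-05), its NURF partner E(bx) by 0.31 (adjusted p = 0.048) and psq, a BTB protein gene, by 0.25 (adjusted p = 0.0049). For several of these genes the sterile mean covered unlike groups. Iswi had mean signals of 1969 ± 204 (SD, n = 3) in 2/v and 3472 ± 116 in Pb/2, beside 3589 ± 138 in wild type and 3728 ± 83.1 in f/v. Of 4 Chromator associates only east, a spindle matrix gene, was called (log2 -0.76, adjusted p = 0.00072). Of 12 cohesin and condensin genes 1 was higher and 4 were lower. Among them wapl, which releases cohesin, fell by 0.52 (adjusted p = 5.3e-05), the condensin genes Cap-D2 and Cap-G fell by 0.34 and 0.21 (adjusted p = 0.04 and 0.029), and Cap-D3 was higher by 0.39 (adjusted p = 0.012). The means of dwg were 1188 for 2/v and 684 for Pb/2, beside 819 in f/v, and those of z 3252 and 2564 beside 2756, so only 2/v lay above f/v. The means of Cp190 (3459 and 4734, beside 4228), Cap-D2 (853 and 1239, beside 1053) and E(bx) (1291 and 1725, beside 1716) lay below f/v in 2/v and above it in Pb/2. Of 6 Notch corepressor and E(spl) genes, with which insv is linked, E(spl)m3-HLH alone was called (log2 0.18, adjusted p = 0.028). The rises of dwg, Ibf2, z, Cap-D3 and E(spl)m3-HLH turned negative with arrays scaled to the hybridization controls (-0.090 to -0.25), a scaling that moved the median of all genes by -0.40. Relative to that median the 5 genes stayed above it, by 0.15 to 0.31. Omission of 1 array ended the sterile against fertile call of E(bx) for 9 of the 12 arrays (adjusted p up to 0.11), of Cap-D2, dwg and Cp190 for 7 each (up to 0.088, 0.086 and 0.082), of Cap-G and E(spl)m3-HLH for 6 each (up to 0.07 and 0.066) and of Topors for 3 (up to 0.054).

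**Figure D4:**
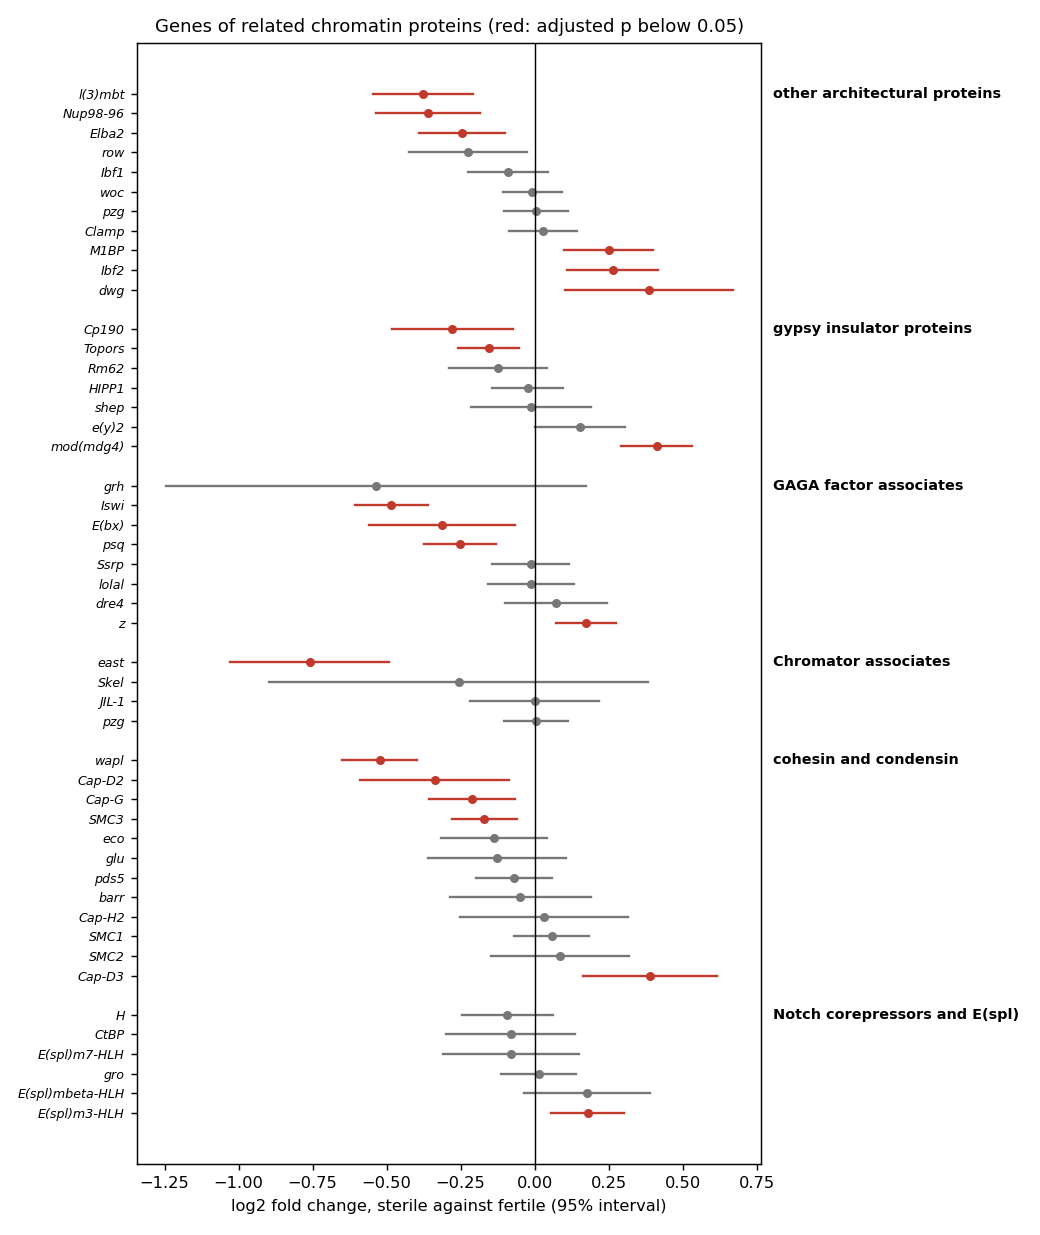
Difference of log2(signal + 16) between sterile and fertile ovaries for the tested genes of the 6 lists, 1 point per gene with its 95% interval, called genes in red, pzg shown in both of its lists and su(Hw) left out. Changes reach -0.76 (east) and 0.41 (mod(mdg4)), and 20 of 47 genes were called.

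The genes whose pattern was most like each member were taken by Pearson r of normalized log2 values over the 12 arrays. For insv these were CG15695 (r = 0.950), the eggshell protein gene Cp19 (r = 0.937) and CG1077 (r = 0.935). The fall of Cp19 was far larger than that of insv, with mean signals of 5914 in wild type and 8010 in f/v, against 412 in 2/v and 251 in Pb/2. The means of CG15695 (44.6 in 2/v and 25.6 in Pb/2) and CG1077 (53.0 and 47.2) were under background in the sterile genotypes. For pita they were the purine synthesis gene Gart (r = 0.968), Spn77Bc (r = 0.964) and CG4080 (r = 0.957), and Gart read 4194, 3092, 4465 and 3825 in wild type, f/v, 2/v and Pb/2. The f/v mean of Spn77Bc (4.03) was under background. For CTCF, by 1627546_at, they were e(r) (r = 0.933), Myd88 (r = 0.883) and Psf3 (r = 0.876). BEAF-32 was most like Ssrp (r = 0.917), cnir (r = 0.914) and Rab40 (r = 0.894), and Chro most like CG3626 (r = 0.942), Karybeta3 (r = 0.934) and Vhl (r = 0.927). Trl was most like stx (r = 0.902), nebu (r = 0.891) and lola (r = 0.886), and ZIPIC most like foi (r = 0.946), ex (r = 0.884) and Ret (r = 0.883). These correlations share the same arrays and the 4 groups and were the highest of all genes tested, so they are a description only.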

How the data were processed

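The authors deposited linear intensity values per probe set, credited to GCOS in the submitters' processing notes; the sources used here give neither version nor settings. Trimmed by 2% at both ends, the mean of each array is 1500, and 57.8 to 63.6% of probe sets lay above a background of 61.97 in deposited units; the number of arrays limits the precision. Of 18952 probe sets, 183 are controls, 13647 carry 1 gene, 402 carry several and 4720 no symbol, and the last 2 kinds were left out.

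From these, log2(intensity + 16) was quantile normalized. A filter kept the 12700 probe sets that exceeded an array's 40th percentile in 3 or more of the 12 arrays, and each gene was read from its brightest probe set (highest mean, 1 gene only). The fit used lmFit and eBayes of limma 3.58.1 (R 4.3.3) with 8 residual degrees of freedom and Benjamini-Hochberg adjustment over all genes, after a test on simulated data. The 6 pairs of groups and the mean of sterile against the mean of fertile groups were compared. Same-numbered arrays correlated at -0.15 to 0.0996 after removal of group means (18 pairs), so they were not treated as paired. Figures used matplotlib 3.10.9 in Python 3.11.15.

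The members and lists were chosen with earlier results of these data known. The naming rule takes the 7 members in every comparison, su(Hw), up to 4 called genes of each list with the largest change per comparison, and 3 most-like genes per member. List genes are named for sterile against fertile only, a limit set after their values were seen. Elba2 and the other neighbours of members fall outside the rule. The alternatives were the deposited values without normalization, median subtraction per array, scaling to the hybridization controls, pseudocounts of 1 and 64, no filter and a 60th percentile filter, the mean of all probe sets, every probe set separately, only the groups compared, trend and robust estimates, a replicate block and omission of each array.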

Additional observations from a re-analysis of the deposited data

How the results depend on the processing

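Of 602 values of a member in a comparison under the settings other than omission of an array, 553 stayed on their side of the threshold (25 of them uncalled with the other sign), 4 lost a call, 41 gained one and 4 reversed; of 588 with an array omitted, 581 stayed on their side (27 uncalled with the other sign) and 7 gained a call. Of 369 values of the related and neighbouring genes 37 lost a call, 2 gained one and 12 reversed, and of 348 with an array omitted 56 lost a call. The CTCF probe set 1626500_a_at was called lower in all 3 mutants under every setting that gave a value (log2 -4.40 to -2.83). The sterile against fertile fall of insv was called under every setting (log2 -0.92 to -0.40). The replicate block changed no member's call (insv adjusted p = 0.0012), but moved the count of all genes called for Pb/2 against 2/v from 1856 to 1221.

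The number of members called was 1 in each comparison with wild type, 2 and 1 for 2/v and Pb/2 against f/v, 0 for Pb/2 against 2/v and 1 for sterile against fertile. On deposited values it was 2, 3 and 2 against wild type. With only the groups compared it was 3 for 2/v against f/v. With the median subtracted it was 2 for Pb/2 against wild type and 1 for 2/v against f/v. Scaled to the hybridization controls, which read 1.23, 1.40 and 1.48 times wild type in f/v, 2/v and Pb/2, it was 3, 7 and 6 against wild type and 7 for sterile against fertile. It was 2 for 2/v against wild type with the 60th percentile filter and with trend and robust estimates. With the mean of probe sets, or each separately, it was 2 in each comparison with wild type, 1 for Pb/2 against 2/v and 2 for sterile against fertile, and with each separately 2 for Pb/2 against f/v. Omitting an array gave 1 to 2 against wild type and 0 to 1 for Pb/2 against 2/v. The cause was not tested, but the probe set settings bring in the dim CTCF probe sets.

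Scaling to the controls reversed BEAF-32 in 2/v and Pb/2 against wild type (log2 -0.40 and -0.45), Trl in Pb/2 against wild type (-0.66) and pita in sterile against fertile (-0.34). It also reversed dwg (-0.090), Ibf2 (-0.15), z (-0.25), Cap-D3 (-0.13) and E(spl)m3-HLH (-0.21) there, and Elba2 in f/v against wild type (-0.071). Of the mod(mdg4) probe sets, 6 reversed (-2.25, -0.22, -0.094, -0.044, -0.018 and -0.0038). That scaling moved the median of all genes by -0.33, -0.53 and -0.60 against wild type, -0.20 and -0.27 against f/v and -0.40 for sterile against fertile; subtraction of the median moved it by 0.15, 0.20 and 0.17 against wild type and 0.11 for sterile against fertile. Relative to that median insv lay at -0.38 to -0.56 in the 4 sterile against fertile pairs over the 4 scalings, and the reversed values of BEAF-32, dwg, Ibf2, z, Cap-D3 and E(spl)m3-HLH lay above it.

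Calls over all genes, higher and lower, were 1665 and 1541, 2196 and 2041, and 1442 and 1425 against wild type (f/v, 2/v and Pb/2), and 1686 and 1653 for sterile against fertile. With the median subtracted they were 2293 and 1152, 3353 and 1352, 2461 and 1085, and 2667 and 1105; scaled to the controls 416 and 3419, 411 and 5430, 373 and 6759, and 404 and 6177. On deposited values f/v gave 1339 and 1903 and Pb/2 1272 and 1888 against wild type. Against f/v, scaling to the controls gave 505 and 1720 for 2/v (1257 and 1238 otherwise) and 368 and 2059 for Pb/2 (913 and 959). For Pb/2 against 2/v the 1856 calls became 1130 with the median subtracted, 656 scaled to the controls, 988 with only the groups compared and 989 to 1851 with an array omitted. Of the likeness values, that of CTCF and e(r) fell to 0.419 on deposited values, and those of Trl to 0.464 to 0.646 with the median subtracted.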
